A study of Mus musculus with 26 samples.

Results

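The 4 arrays described here compare mouse embryonic stem cells that lack Prdm14 with wild-type cells after 2 days in serum medium without leukaemia inhibitory factor (LIF). They were chosen by their titles from the 26 arrays of the series: 2 arrays labelled Prdm14(-/-) and 2 labelled Prdm14(+/+), all in serum without LIF. Each gene was read from 1 probe set, the one with the highest mean over all 26 arrays, which gave 18193 genes. All cells were C57BL/6 and male, grew on mouse embryonic fibroblast (MEF) feeders, and received 20% fetal bovine serum with no inhibitor and no LIF. The labels call the knockout cells ESC-like and the wild-type cells ESCs. A further pair of arrays in the same medium came from knockout cells with the pPyCAG-AGP14 transgene, an Avitag-EGFP-tagged Prdm14 under a constitutive CAG promoter, and is used as a reference. The same 2 genotypes were also profiled in serum with LIF (1000 units per ml), in that medium with the MEK inhibitor PD0325901 (0.4 uM), and in 2i, a serum-free medium with LIF, that inhibitor and the GSK3 inhibitor CHIR99021. Neither the labels nor the protocols say whether the arrays of a group came from separate cultures or separate lines, so the p-values below cover array-to-array spread alone, and that spread may be technical.

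Prdm14 is a PR-domain zinc finger protein found in primordial germ cells and in naive pluripotent cells. It acts mainly as a repressor, is known to restrain FGF receptor signalling and the de novo DNA methyltransferases, and works with the corepressor Cbfa2t2. LIF signals through its receptor, gp130 and JAK kinases to the transcription factor Stat3, which sustains naive factors such as Klf4 and Tfcp2l1. In serum without added LIF, stem cells lose this input, although feeder fibroblasts secrete some LIF of their own.

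Values are log2 signals. The median probe set of the 4 arrays lay at 4.89 to 4.92 and the 25th percentile at 3.23 to 3.27, so a value near 3 is dim. Defining stem cell markers were bright in all 4 arrays: Pou5f1 stood at 12.17 and 12.23 in wild type and at 12.25 and 12.26 in knockout, and Dppa5a at 13.35, 13.49, 13.29 and 13.35 in the same order. Cdx2, of trophoblast, lay between 2.01 and 3.36, Gata4, of extraembryonic endoderm, between 3.26 and 4.12, and Mixl1, of mesoderm, between 3.38 and 4.03, so these lineage markers were dim in both genotypes.

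The Prdm14 probe set read 4.28 and 5.17 in the wild-type arrays and 3.21 and 4.05 in the knockout arrays. The groups did not overlap, but the difference of -1.10 (SE 0.41) did not pass the test used throughout, limma with Benjamini-Hochberg adjustment over all genes and a limit of 0.05 on the adjusted p (adjusted p = 0.153). With the transgene, Prdm14 read 5.12 and 4.86. In 2i and with MEK inhibitor the arrays labelled knockout read higher than wild type, by 2.11 and 1.48. Which exons the knockout removes is not stated in the labels, so this probe set does not check the genotype, and every direction below rests on the labels.

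A small group of genes was far lower in the knockout arrays, and fewer genes were far higher. In all, 444 of 18193 genes (2.44%) fell and 319 (1.75%) rose by that test, 763 in either direction (4.19%). For 8078 genes (44.4%) the arrays of the groups did not overlap. Of called genes without overlap between the groups, the 15 largest falls ran from -4.85 to -2.29 and the 15 largest rises from 2.70 to 1.5. The counts depend on the fit: there were 20 calls in the compared arrays alone and 291 without knockout array 1, and quantile scaling gave 453 rises and 427 falls. Leaving out any 1 of the 4 arrays kept the call of 10 of these falls and of 3 of these rises. Of the other called genes named below, Klf2, Klf5, Nr5a2, Nr0b1, Fbxo15, Hormad1, Stag3, Ifitm1, Tet1, Ddc, Mvd, Idi1, Uqcrc1, Pfkp and Fn1 kept theirs, and the rest lost it without at least 1 array.

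Slc38a4, an imprinted gene for a neutral amino acid transporter, had the largest fall. It read 9.77 and 9.63 in wild type and 4.71 and 5.0 in knockout, a difference of -4.85 (SE 0.40, adjusted p = 1.61e-06). Its second probe set gave -4.27. Both knockout arrays lay more than 4 log2 units below both wild-type arrays, and the transgene arrays read 9.46 and 9.81.

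Ccnb1ip1, which encodes a ubiquitin ligase needed for meiotic crossing over, had the smallest adjusted p of all genes. It read 7.77 and 8.09 in wild type and 3.67 and 4.33 in knockout, a difference of -3.93 (SE 0.20, adjusted p = 1.96e-09). The transgene arrays, at 5.0 and 4.72, stayed near the knockout level. Rhox5, an X-linked homeobox gene of the reproductive tract and placenta, read 11.12 and 10.10 in wild type and 6.65 and 7.29 in knockout, a difference of -3.64 (SE 0.56, adjusted p = 0.000874). Here the transgene arrays, at 11.24 and 10.59, lay with wild type.

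Because silencing of Rhox5 and of Slc38a4 alleles by CpG methylation is well known, the 250 bases before the RefSeq start of these 3 genes (assembly GRCm38.p6) are shown 5′ to 3′ along the gene's strand, with each CG dinucleotide in capitals. Ccnb1ip1 lies on the minus strand at chr14:50795729-50795978, Rhox5 on the plus strand at chrX:37754358-37754607, and the first of 3 listed Slc38a4 starts on the minus strand at chr15:97055957-97056206.
Ccnb1ip1: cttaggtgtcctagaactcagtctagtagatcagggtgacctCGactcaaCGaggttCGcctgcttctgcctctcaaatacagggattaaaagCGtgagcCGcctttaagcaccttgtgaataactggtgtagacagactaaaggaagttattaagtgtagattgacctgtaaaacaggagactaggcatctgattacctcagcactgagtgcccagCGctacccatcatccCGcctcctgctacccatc
Rhox5: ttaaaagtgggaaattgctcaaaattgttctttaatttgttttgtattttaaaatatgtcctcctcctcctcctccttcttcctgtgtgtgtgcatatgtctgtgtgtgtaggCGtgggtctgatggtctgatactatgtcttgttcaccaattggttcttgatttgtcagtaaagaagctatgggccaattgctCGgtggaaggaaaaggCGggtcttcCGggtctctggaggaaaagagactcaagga
Slc38a4: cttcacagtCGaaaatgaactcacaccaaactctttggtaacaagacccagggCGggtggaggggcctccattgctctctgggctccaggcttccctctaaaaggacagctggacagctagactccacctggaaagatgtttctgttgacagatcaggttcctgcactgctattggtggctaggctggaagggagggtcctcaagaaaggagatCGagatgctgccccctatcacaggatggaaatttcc
CG was searched as these letters, which read the same on both strands. The Ccnb1ip1 stretch holds 7, a number reached by 46.3% of all 32851 promoter entries of this length. Rhox5 holds 4, reached by 62.2%, and Slc38a4 holds 3, reached by 71.0%. None of the 3 stretches is therefore rich in CG compared with other promoters, and methylation was not measured on these arrays.

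**Figure D1:**
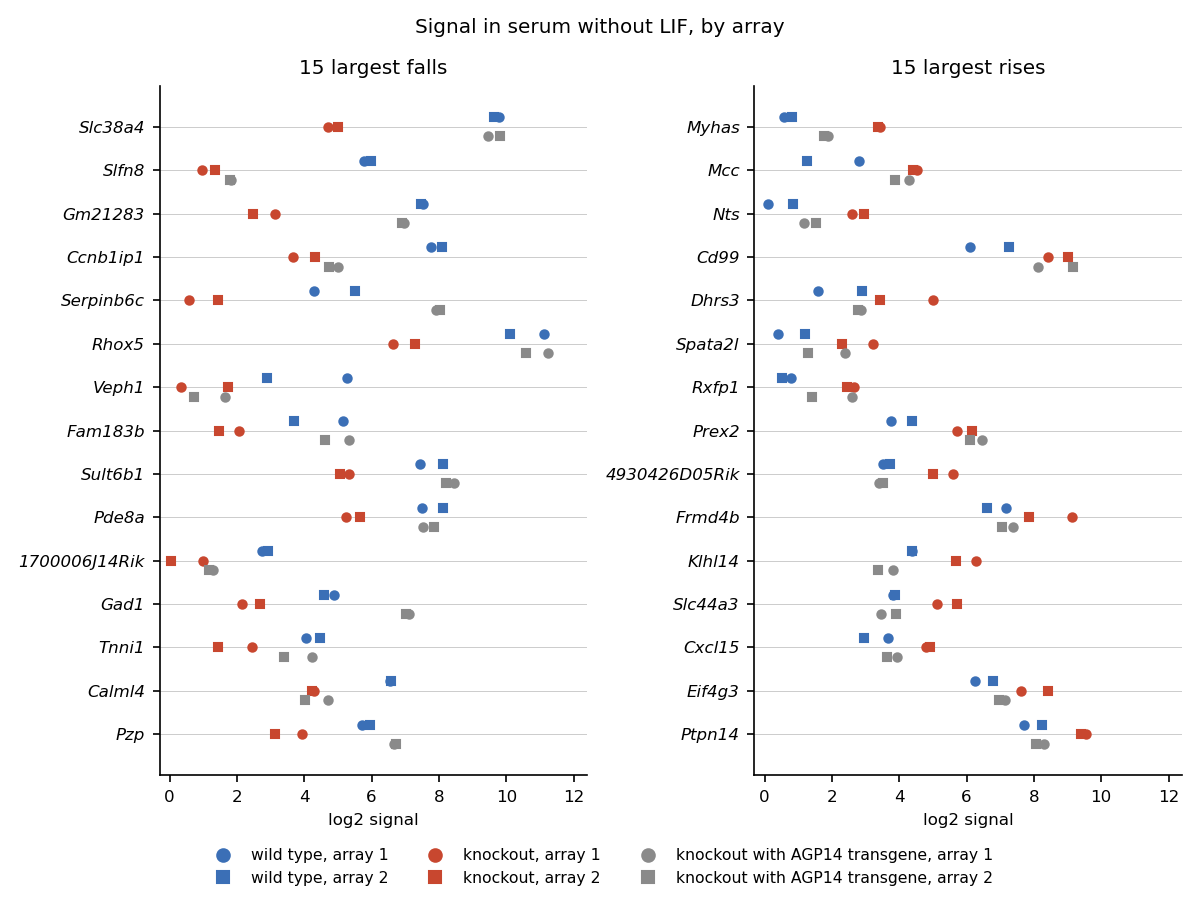
Log2 signal (horizontal axis) of the 15 largest falls (left) and 15 largest rises (right) in serum without LIF, 1 point per array, for wild type, knockout and knockout with the AGP14 transgene. Slc38a4, Rhox5 and Serpinb6c return to or above wild type in the transgene arrays, while Slfn8, Ccnb1ip1, Veph1 and Calml4 stay low.

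Slfn8, of the Schlafen family of growth-regulatory and antiviral proteins, read 5.76 and 5.98 in wild type and 0.95 and 1.34 in knockout (-4.73, SE 0.33, adjusted p = 1.57e-07). Its transgene values of 1.82 and 1.78 were as low. Among the other 7 measured Schlafen genes none passed; the family member Slfn9 read 7.34 and 7.53 in wild type, 6.04 and 4.28 in knockout (-2.28, adjusted p = 0.0886) and 4.88 and 4.86 with the transgene. Serpinb6c, a clade B serpin that inhibits proteases inside cells, read 4.30 and 5.51 in wild type and 0.59 and 1.43 in knockout (-3.90, SE 0.54, adjusted p = 0.000348). With the transgene it read 7.92 and 8.02, above both other groups.

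Several falls were of enzymes and signalling proteins. Pde8a, a phosphodiesterase that degrades cyclic AMP, read 7.49 and 8.11 in wild type and 5.24 and 5.67 in knockout (-2.35, SE 0.20, adjusted p = 2.14e-06). Sult6b1, a sulfotransferase, read 7.44 and 8.13 against 5.34 and 5.06 (-2.59, adjusted p = 5.07e-05). Both groups were tight relative to these differences, and each transgene pair lay at the wild-type level (7.52 and 7.85 for Pde8a, 8.45 and 8.20 for Sult6b1). Calml4, a calmodulin-like protein, read 6.54 and 6.59 in wild type, 4.29 and 4.24 in knockout (-2.30, adjusted p = 0.000461) and 4.70 and 4.03 with the transgene. Pzp, a secreted protease inhibitor of the alpha-2-macroglobulin family, read 5.70 and 5.95 against 3.94 and 3.14 (-2.29, adjusted p = 0.00119). The unnamed model Gm21283 read 7.52 and 7.46 against 3.12 and 2.48 (-4.69, adjusted p = 0.000281).

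The remaining 5 large falls lost their call without wild-type array 1. Veph1 read 5.26 and 2.90 in wild type and 0.35 and 1.74 in knockout, so that the wild-type arrays were themselves far apart; its difference of -3.04 (adjusted p = 0.0164) did not pass without wild-type array 1 (0.265). Fam183b, Gad1, Tnni1 and 1700006J14Rik, at -2.66, -2.32, -2.31 and -2.33, did not pass there either (adjusted p = 0.346, 0.222, 0.0816 and 0.0583). Gad1 makes the neurotransmitter GABA, and its second probe set gave 0.22. Tnni1 is the troponin I of slow muscle. 1700006J14Rik stayed under the 25th percentile in all 4 arrays. Both knockout values of Veph1, Fam183b, Gad1 and Tnni1 lay under it as well.

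The rises were smaller and less stable than the falls. Ptpn14, a tyrosine phosphatase that binds the growth regulator YAP, read 7.72 and 8.25 in wild type and 9.56 and 9.41 in knockout (1.5, SE 0.18, adjusted p = 0.000104), and its other 2 probe sets gave 0.54 and 0.85. Its transgene arrays read 8.31 and 8.07, close to wild type. Mcc, a negative regulator of cell cycle progression, read 2.80 and 1.25 against 4.52 and 4.42 (2.45, adjusted p = 0.00236), with 0.14 to 0.64 in its other 4 probe sets. Prex2, an exchange factor for the GTPase Rac, read 3.76 and 4.39 against 5.73 and 6.15 (1.87, adjusted p = 0.00171), but its other probe set gave -0.14. These 3 rises kept their call without any 1 array.

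Cd99, a cell surface glycoprotein, read 6.11 and 7.26 in wild type and 8.41 and 9.0 in knockout (2.02, adjusted p = 0.0167); its other 2 probe sets had the same sign (1.06 and 1.41) and its transgene arrays, at 8.13 and 9.16, were as high as knockout. Without wild-type array 1 its adjusted p was 0.218. Dhrs3, which reduces retinal to retinol, read 1.59 and 2.89 against 5.01 and 3.42 (1.98, adjusted p = 0.0467, and 0.385 without wild-type array 1). The neuropeptide gene Nts, the relaxin receptor gene Rxfp1 and Spata2l passed at 2.31, 1.90 and 1.96, yet stayed below the 25th percentile in every array and lost their call without wild-type array 1 (adjusted p = 0.287, 0.135 and 0.282). Myhas, an antisense transcript of the myosin heavy chain cluster, read 0.59 and 0.81 in wild type, far below the 25th percentile, and 3.43 and 3.36 in knockout, just above it (2.70, adjusted p = 0.0324, and 0.167 without that array). The size of this difference rests on dim values. Of the other rises, Frmd4b (1.61), Cxcl15 (1.56) and Eif4g3 (1.51), a translation initiation factor, have probe sets of the opposite sign (lowest -0.57, -1.80 and -0.54), while 4930426D05Rik (1.68), Klhl14 (1.60) and the choline transporter-like gene Slc44a3 (1.58) have no other.

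The naive pluripotency genes were lower in knockout. Of 21 measured members, 11 fell and none rose (52.4% lower, against 2.44% of all genes), the median difference was -0.81 (all genes: -0.01), and the arrays of the genotypes did not overlap for 13 (44.4% of all genes did not). Prdm14 is itself 1 of the 21. The mean level of these genes was 8.42 and 8.87 in wild type, against 6.29 and 6.27 for all genes, so these shares were not taken at like levels. Several lists below were also brighter than all genes. The naive list was used in earlier analyses of these data, so its direction is not independent evidence.

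The 2 largest falls of the list were nuclear receptor genes. Nr5a2, which can activate Pou5f1, read 6.80 and 7.74 in wild type and 4.67 and 5.50 in knockout (-2.19, SE 0.29, adjusted p = 0.000241); its other 3 probe sets ranged from -2.44 to 0.42. Nr0b1, a partner and repressor of Nr5a2, read 8.98 and 10.04 against 7.05 and 7.81 (-2.08, SE 0.27, adjusted p = 0.00017). Esrrb, an orphan receptor that can replace LIF signalling when forced, read 7.81 and 8.85 against 6.79 and 7.53 (-1.17, adjusted p = 0.0164). Its difference was -0.65 without wild-type array 2 and -0.80 without knockout array 1, and did not pass (adjusted p = 0.194 and 0.230). Within each genotype array 2 was the higher for all 3 receptors, and the groups did not overlap.

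Of the Kruppel-like factors of naive cells, Klf2 read 10.94 and 11.21 in wild type and 9.99 and 9.55 in knockout (-1.31, SE 0.14, adjusted p = 2.08e-05). Klf5 read 9.82 and 9.90 against 8.59 and 8.97 (-1.08, adjusted p = 2.01e-05), with -0.38 to 0.12 in its other 2 probe sets. Klf4, a direct Stat3 target, read 8.49 and 9.73 against 8.23 and 8.78; its groups overlapped and its difference of -0.61 did not pass (adjusted p = 0.425). Tcl1, an activator of the kinase AKT, fell by 1.73 (7.94 and 8.82 against 6.33 and 6.98, adjusted p = 0.00251). Fbxo15, an F-box gene activated by Pou5f1 and Sox2, fell by 1.22 (10.53 and 11.11 against 9.75 and 9.45, adjusted p = 0.000821). Zfp42, the naive marker also called Rex1, fell by 0.54 (10.04 and 10.26 against 9.63 and 9.60, adjusted p = 0.00882).

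Nanog, the homeobox factor of the naive network, read 9.85 and 10.50 in wild type and 9.55 and 9.90 in knockout, so the groups overlapped (-0.45, adjusted p = 0.198, not called). Tfcp2l1 (6.32 and 7.60 against 6.11 and 6.20; -0.81, adjusted p = 0.139) and Tbx3 (6.39 and 7.42 against 7.01 and 6.18; -0.31, adjusted p = 0.712) did not pass either. Leaving out knockout array 1 brought the naive count to 6, and leaving out wild-type array 1 brought it to 12 with a median of -1.12.

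**Figure D2:**
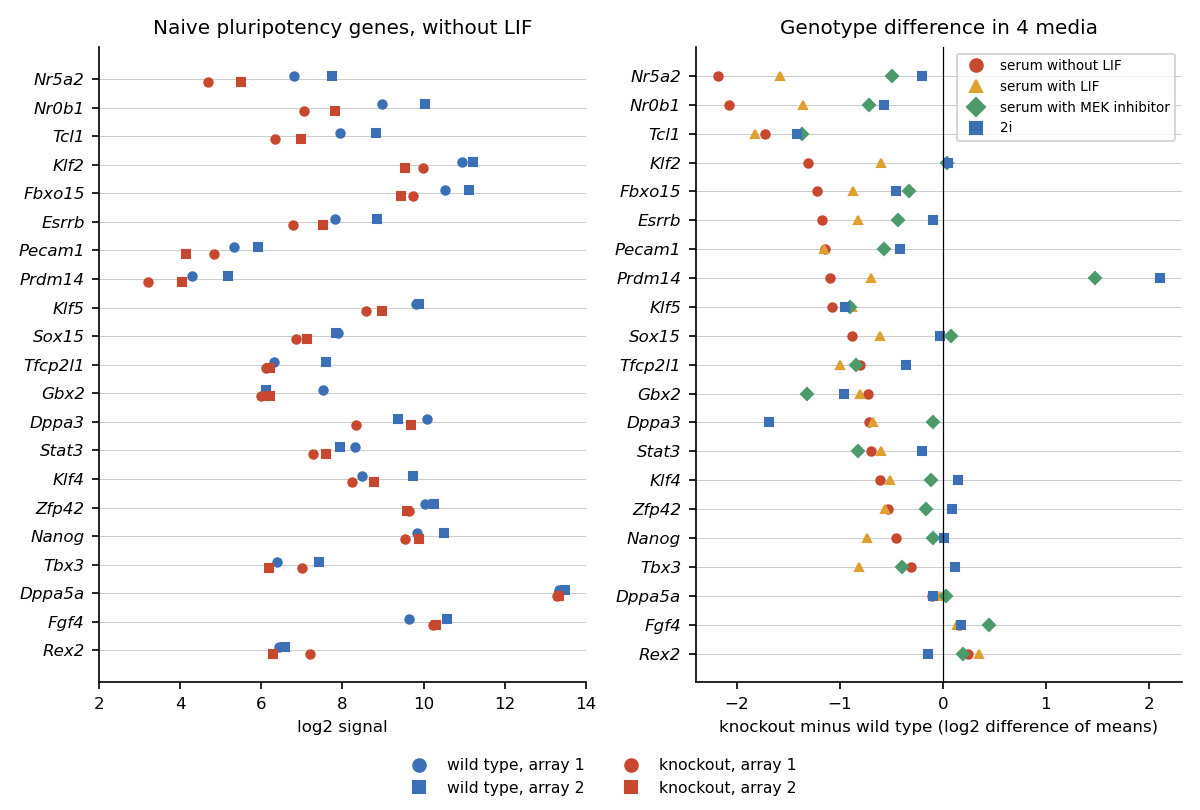
Left: log2 signal of the 21 measured naive pluripotency genes in each of the 4 arrays, sorted by difference, from Nr5a2 (-2.19) at the top. Right: the log2 difference of knockout minus wild type in 4 media, where Klf2 lies at -1.31 without LIF and near 0 with MEK inhibitor (0.04) and in 2i (0.06).

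Core pluripotency genes moved little. Of 10 measured members only Sox2, the partner of Pou5f1, fell, from 12.33 and 12.5 to 11.75 and 12.18 (-0.45, adjusted p = 0.0114), and the list median was -0.16. Pou5f1 differed by 0.06 (adjusted p = 0.657) and Sall4, a zinc finger factor of the same network, by 0.01 (adjusted p = 0.986). Of 19 formative and primed epiblast genes 1 rose (5.26%, against 1.75% of all genes), the zinc finger gene Sall2 (0.47, adjusted p = 0.0179). The median was 0.04. Otx2 (-0.31), Pou3f1 (-0.10) and Fgf5 (0.55), which mark cells that leave the naive state, did not pass (adjusted p = 0.900, 0.948 and 0.755).

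Germline and meiosis genes held 7 falls. Of 30 measured members 7 fell and none rose (23.3% lower, against 2.44% of all genes), with a median of -0.44. Members of this list, as of all lists here, were chosen with earlier results of these data known. Its share of falls is therefore not independent evidence. Besides Ccnb1ip1 and Rhox5 the 7 falls were Hormad1, Stag3, Hormad2, Tex19.1 and Piwil2. Hormad1, a protein of meiotic chromosome axes, read 8.40 and 8.76 in wild type and 6.77 and 5.92 in knockout (-2.24, adjusted p = 0.000569). Stag3, the meiotic cohesin subunit, read 7.76 and 7.89 against 6.33 and 6.59 (-1.37, adjusted p = 0.000403). Both groups were well separated for these 2 genes, and their calls held without any 1 array.

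Piwil2, a Piwi protein that acts with small RNAs against transposons, fell by 0.72 (8.06 and 7.84 against 7.25 and 7.22), and Tex19.1, which also protects germ cells from transposons, fell by 1.55 (group means of 11.37 and 9.83, with no overlap). Hormad2 fell by 1.43 (5.87 and 5.11 against 4.09 and 4.04). Without wild-type array 1 these 3 did not pass (adjusted p = 0.229, 0.210 and 0.150), and 4 of the list's 7 falls were called. Other known targets of promoter methylation did not pass: Dazl, an RNA-binding protein of germ cells, at -0.87 (adjusted p = 0.0829), Sycp3 at 0.06 and Ddx4 at 0.13. Of 4 measured Rhox genes only Rhox5 passed.

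Regulators of primordial germ cells lay lower, with 10 of 10 differences negative (9215 of 18193 over all genes). The list had 3 falls (2.44% of all genes fell) and a median of -0.73. Tfap2c fell by 0.91 (8.74 and 8.93 against 7.69 and 8.17, adjusted p = 0.0338) and Ifitm1, an interferon-induced membrane protein of early germ cells, by 0.90 (10.51 and 10.58 against 9.71 and 9.58, adjusted p = 0.000448); Sox2 is the other. Prdm1, the repressor that starts germ cell fate, read 6.03 and 6.79 against 5.25 and 5.83 and did not pass (-0.87, adjusted p = 0.207). Leaving out wild-type array 2 left 1 call in this list. The list shares members with lists above: Prdm14 itself is also a naive gene, and Sox2 is also a core gene. Its direction is therefore not independent of the naive and core results.

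None of the 12 measured DNA methylation genes rose. Dnmt3b, a de novo methyltransferase, read 13.16 and 13.05 in wild type and 13.20 and 13.12 in knockout (0.06, adjusted p = 0.948), and its cofactor Dnmt3l read 11.29 and 11.48 against 10.95 and 11.02 (-0.40, adjusted p = 0.226). Tet1, which oxidises methylcytosine, fell by 0.50 (10.88 and 10.91 against 10.43 and 10.36, adjusted p = 0.000419), and the maintenance enzyme gene Dnmt1 fell by 0.30 (adjusted p = 0.0439, with a highest value of 0.241 when 1 array was left out). Of this list 2 genes fell (16.7%, against 2.44% of all genes) and the median was -0.40 (all genes: -0.01). Its mean level was 9.87 and 9.88 in wild type, against 6.29 and 6.27 for all genes, so these shares were taken at unlike levels.

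Of 50 measured imprinted genes 3 fell and none rose (6.0%, against 2.44% of all genes). Their median was 0.02, and -0.13 without wild-type array 1. The 3 were Slc38a4, Usp29 and Ddc. Ddc, which makes dopamine and serotonin from their precursors, read 7.83 and 7.72 against 6.79 and 6.71 (-1.03, adjusted p = 0.000179), with -0.49 in its other probe set. Usp29 read 3.67 and 3.70 against 1.71 and 1.81 (-1.93, adjusted p = 0.0338, and 0.150 without wild-type array 1). The transgene arrays of Ddc, at 8.11 and 7.97, lay above both groups.

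In the LIF pathway, the gp130 receptor subunit gene Il6st fell by 0.45 (9.16 and 9.21 against 8.66 and 8.82, adjusted p = 0.0104) and Stat3 fell by 0.70 (8.30 and 7.95 against 7.27 and 7.59, adjusted p = 0.00712), though 1 of the other 3 Stat3 probe sets gave 0.29. Pim1, a kinase gene induced by Stat3, rose by 0.49 (10.42 and 10.40 against 10.91 and 10.89, adjusted p = 0.0418). The feedback inhibitor Socs3 differed by -0.22 (adjusted p = 0.592) and the receptor gene Lifr by -0.27 (adjusted p = 0.488). Over all genes 1.75% rose and 2.44% fell, against 6.25% and 12.5% of this list. Of 16 measured genes of the pathway 1 rose and 2 fell, and none of these 3 calls was made without knockout array 1.

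The FGF and ERK genes gave few calls. Fgfr1, the main FGF receptor of these cells, rose by 0.50 (7.92 and 7.98 against 8.55 and 8.35, adjusted p = 0.0199). Its other 2 probe sets gave 0.11 and 0.12. Fgfr1 was the only call among 16 FGF ligands and receptors (6.25% higher, against 1.75% of all genes). Spry2, an inhibitor of receptor tyrosine kinase signalling, rose by 0.50 (10.89 and 11.03 against 11.44 and 11.47, adjusted p = 0.00801), and the early response gene Ier3 by 0.61 (adjusted p = 0.0154). These were 2 of 19 ERK response genes (10.5%, against 1.75% of all genes). Their median was 0.27, and 0.06 without wild-type array 1, where neither passed (adjusted p = 0.0968 and 0.156).

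Lineage lists stayed close to their background. None of 23 extraembryonic endoderm, 17 mesoderm, 14 Wnt response and 15 Nodal and BMP response genes passed, and neither did any of 7 genes of the 2-cell-like state or 9 housekeeping genes. Of 17 trophoblast genes the keratin Krt8 rose by 1.31 (7.93 and 7.29 against 8.92 and 8.92, adjusted p = 0.027), and Tfap2c fell. Each is 5.88% of the list, against 1.75% of all genes higher and 2.44% lower. The other 2 probe sets of Krt8 gave 1.33 and 1.34. Krt8 did not pass without knockout array 1, knockout array 2 or wild-type array 2 (adjusted p = 0.135, 0.122 and 0.187). Krt8 with the transgene read 6.77 and 6.42, below both groups. Of 13 neuroectoderm genes 1 rose (7.69%, against 1.75% of all genes), the microtubule protein gene Map2 (0.72), but its mean over 4 probe sets was -0.21. Lefty2, a Nodal antagonist, missed the limit (-1.34, adjusted p = 0.056).

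Metabolic genes differed by small amounts. In cholesterol synthesis 6 of 19 genes rose and none fell (31.6%, against 1.75% of all genes), with a median of 0.24. Their mean level was 9.0 in each wild-type array, against 6.29 and 6.27 for all genes, so these shares were not taken at like levels. Members of this list were also chosen with earlier results of these data known, so its share is not independent evidence. Mvd, the mevalonate diphosphate decarboxylase, rose most, from 7.17 and 7.09 to 7.95 and 7.96 (0.83, adjusted p = 0.00646), and Idi1, the isomerase of the next step, rose by 0.56 (10.22 and 10.27 against 10.87 and 10.73, adjusted p = 0.000686). The synthase Hmgcs1 (0.35), the kinase Pmvk (0.61), the epoxidase Sqle (0.31) and Msmo1 (0.42) were the others. Without wild-type array 1 the calls fell to 2, without wild-type array 2 to 4 and without either knockout array to 3.

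Of 24 oxidative phosphorylation genes 5 fell and none rose (20.8% lower, against 2.44% of all genes), with a median of -0.13. Their mean level was 11.35 and 11.36 in wild type, against 6.29 and 6.27 for all genes, so these shares too were taken at unlike levels. Uqcrc1, a complex III subunit, changed by -0.28 (11.48 and 11.44 against 11.19 and 11.17, adjusted p = 0.0036), and the complex I genes Ndufv1, Ndufb9 and Ndufa1 by -0.32, -0.26 and -0.20. Atp5g1, of the ATP synthase, gave -0.43. Each difference was under 0.5 in size; without wild-type array 1 only Uqcrc1 passed. In glycolysis Pfkp, the platelet-type phosphofructokinase, stood apart: it read 10.43 and 10.53 in wild type, 9.13 and 9.0 in knockout (-1.42, SE 0.11, adjusted p = 1.09e-06) and 10.80 and 10.78 with the transgene, and its other 2 probe sets gave -1.27 and -1.02. The glucose transporter gene Slc2a3 (0.58) and Tpi1 (0.29) rose, but not without wild-type array 1 (adjusted p = 0.360 and 0.229).

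Feeder cells were part of every sample, and markers of fibroblasts lay higher in the knockout arrays. Of 26 measured markers 23 had a positive difference (8811 of 18193 over all genes), and the median was 0.46 (all genes: -0.01). Of them 3 rose (11.5%, against 1.75% of all genes): Tagln (1.39), Thbs1 (0.81) and Mmp2 (0.60). Fn1 fell (-0.62), 3.85% of the markers against 2.44% of all genes. Without wild-type array 1 the median was 0.29 and 1 marker rose. The mean level of the list was 6.75 and 7.03 in wild type, 7.39 and 7.22 in knockout and 7.60 and 7.59 with the transgene. No marker was near 0, the lowest value being 3.93 for Col1a1; Col1a2 read 7.93 and 8.60 in wild type and 8.80 and 8.70 in knockout. The part of the feeder share in the falls of stem cell genes was not tested. The transgene arrays had the highest mean marker levels. In bulk RNA, fewer cells of a type and less RNA per cell cannot be told apart.

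**Figure D3:**
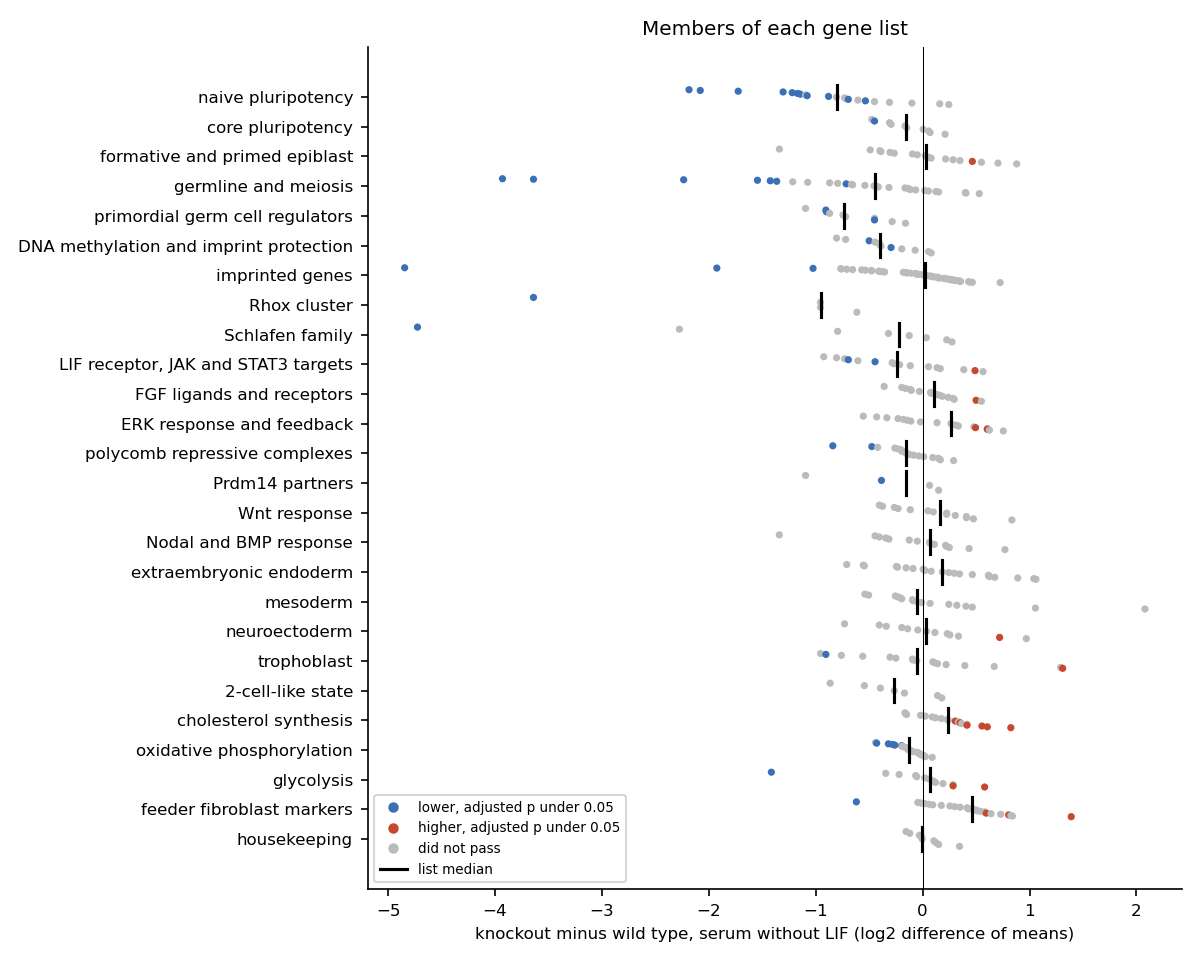
Log2 difference of knockout minus wild type without LIF (horizontal axis) for every measured member of 26 gene lists, with members that passed in colour and the list median as a bar. The naive list holds 11 falls and the germline list 7, and the cholesterol list holds 6 rises.

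The calls of 2 chromosomes were one-sided. On chromosome 11, 97 of 1443 genes fell (6.72%) and 10 rose (0.693%); on chromosome 16, 18 of 593 fell (3.04%) and 2 rose (0.337%). On the other 18 chromosomes 1.28% to 3.70% of genes fell. Among genes with a mean level of at least 7, 89.5% of 627 genes on chromosome 11 and 86.7% of 271 on chromosome 16 had a negative difference, with a median of -0.28 on each, while the medians of the other chromosomes lay between -0.04 and 0.04.

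Wild-type array 1 stood highest on both chromosomes. Genes at that level were set against their median over the 26 arrays, and each array was then centred on its median deviation. Wild-type array 1 gave a median of 0.32 on chromosome 11 and 0.36 on chromosome 16. Wild-type array 2 gave 0.12 and -0.09, knockout array 1 gave -0.04 and -0.07, and knockout array 2 gave 0.03 and -0.14. Elsewhere the 4 arrays stayed between -0.07 and 0.05. The wild-type array numbered 1 was raised in each of the 4 media, by 0.24 to 0.33 on chromosome 11 and by 0.35 to 0.39 on chromosome 16, whereas the 18 arrays of other groups lay between -0.13 and 0.03 and between -0.14 and 0.12.

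With wild-type array 1 left out, 26 of the 97 falls on chromosome 11 (26.8%) and 8 of the 18 on chromosome 16 (44.4%) were still called, against 154 (47.2%) of those on the other chromosomes. With each array centred per chromosome, 48 and 9 of them were. Off these chromosomes 329 of 16157 genes fell (2.04%) and 307 rose (1.90%), nearly equal numbers. DNA copy number was not measured, and what raised these chromosomes in wild-type array 1 was not tested.

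**Figure D4:**
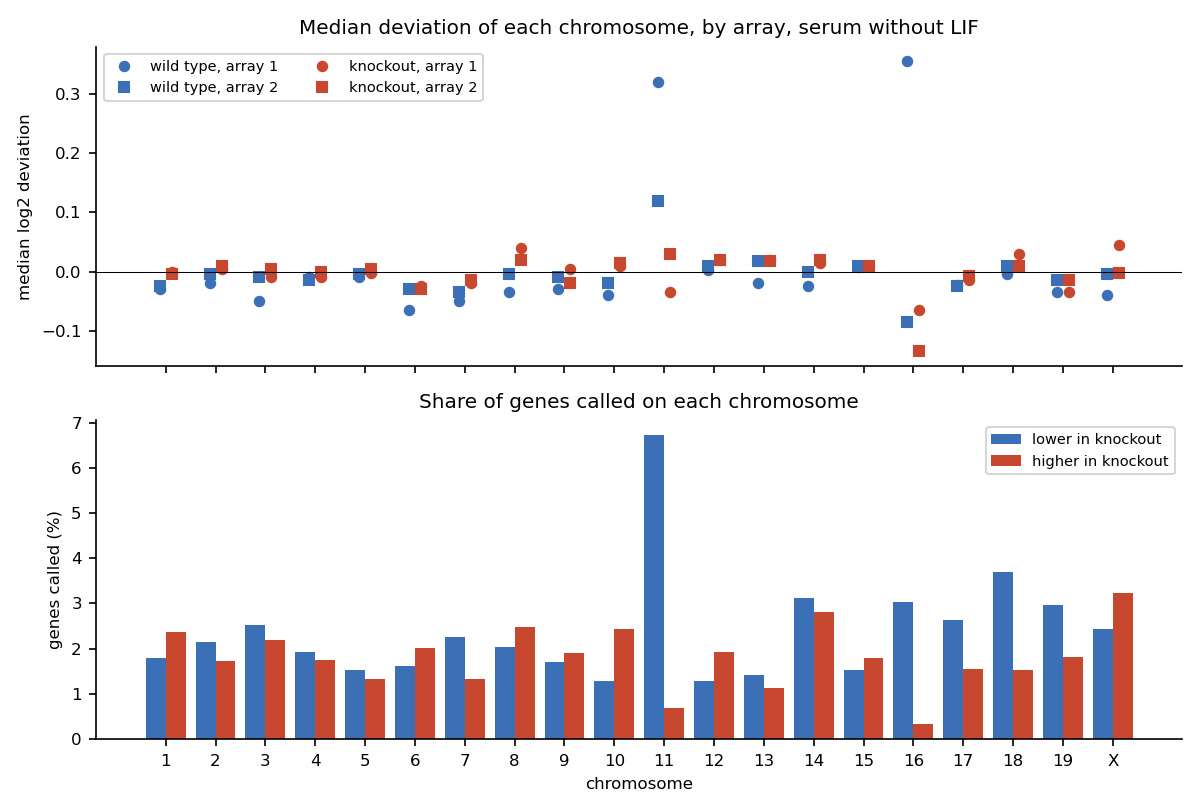
Top: median log2 deviation from each gene's median over 26 arrays, for genes at a mean level of at least 7, by chromosome, for the 4 arrays. Bottom: percent of each chromosome's genes that fell (blue) or rose (red) in knockout. Wild-type array 1 stands at 0.32 on chromosome 11 and 0.36 on chromosome 16, and 6.72% of chromosome 11 genes fell.

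The called genes named here that lie on chromosome 11 were Slfn8, Fam183b, Myhas, Stat3, Sox15, Pecam1, Suz12, Pcgf2, Tex19.1, Hormad2, Ddc and Atp5g1. Centring per chromosome kept Slfn8 (adjusted p = 3.48e-07), Ddc (0.000944), Sox15 (0.00152), Suz12 (0.00807), Fam183b, Myhas, Tex19.1 and Hormad2 (0.0456, 0.0273, 0.0128 and 0.0187), and ended the calls of Stat3 (0.0584), Pecam1 (0.0789), Atp5g1 (0.125) and Pcgf2 (0.269). All 8 measured Schlafen genes lie there too, and centring moved Slfn9, not called, from -2.28 to -2.05. Suz12 and Pcgf2, subunits of polycomb repressive complexes, were the only 2 of 20 polycomb genes that passed (-0.84 and -0.48); neither passed without wild-type array 1 (adjusted p = 0.135 and 0.128). Sox15, a Sox factor of stem cells, fell by 0.88, from 7.89 and 7.85 to 6.85 and 7.13, and Pecam1, an adhesion molecule of naive cells, read 5.33 and 5.91 against 4.82 and 4.13. Without the 2 chromosomes the naive list held 8 falls among 18 genes.

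Few genes passed the test of whether the genotype difference itself differed with LIF. Its standard errors were larger than those of the main comparison (0.19 against 0.14 for Klf2), so a lack of calls does not show equal differences. Klf2 fell by 1.31 without LIF and by 0.60 with LIF, and did not pass (-0.71, limma adjusted p = 0.893). In the fit used throughout no gene passed the test of the difference between the differences without LIF and with LIF (limma with Benjamini-Hochberg adjustment; lowest adjusted p = 0.0778, for Mcemp1), and 654 genes (3.59%) had an unadjusted p under 0.05. Arrays of 1 genotype and number deviated together in these media (r = 0.79 in knockout and 0.83 in wild type), which that fit ignores. With 1 number effect per genotype, a block chosen after seeing the data, 3 genes passed (0.0165%): Mcemp1 (3.57) and the connexin gene Gjb5 (1.92) upward and Pfkp (-0.61) downward without LIF (adjusted p = 0.0179, 0.0179 and 0.0255). None of the 15 largest falls, the 15 largest rises or the naive genes was among them. With LIF, 759 genes (4.17%) were called, 1.39% of all genes higher. There 12 of the 15 largest falls were also called lower (2.79% of all genes were) with a median of -2.45, and Slc38a4 differed by -5.37. Of the 15 largest rises 6 were also called higher with LIF. The 2 media share no arrays, but the labels do not say whether they share lines.

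The knockout and wild-type arrays in 2i and with MEK inhibitor differed from the 4 arrays here in the bacterial Lys control, which read 13.41 to 13.53 on those 8 arrays and 6.93 to 7.18 on these 4. Medium and labelling set therefore cannot be told apart in the next comparisons, although each genotype difference lies within 1 set. Against 2i, 589 genes (3.24%) differed in their genotype difference, 310 upward (1.7%) and 279 downward (1.53%) without LIF. In 2i itself 1665 genes (9.15%) differed between the genotypes, 3.63% higher and 5.52% lower in knockout, and 12 of the 15 largest falls were among the lower. Besides Prdm14, the naive genes Nr5a2 (-1.99), Nr0b1 (-1.51), Klf2 (-1.36), Sox15 (-0.85) and Zfp42 (-0.63) had a more negative difference without LIF (adjusted p = 0.0111, 0.0349, 0.00068, 0.0377 and 0.0348). For Klf2 the knockout differed from wild type by -1.31 without LIF, -0.60 in serum with LIF, 0.04 with MEK inhibitor and 0.06 in 2i. With the number block the counts were larger, 1805 genes (9.92%) against 2i and 851 (4.68%) against MEK inhibitor, and held all 589 and 153 called without it. They included 8 and 6 naive genes, all lower without LIF, Esrrb and Stat3 being added against 2i (-1.08 and -0.49, adjusted p = 0.0163 and 0.0401). The naive list's median was -0.81 without LIF, -0.74 with LIF, -0.33 with MEK inhibitor and -0.14 in 2i, with 11, 11, 3 and 2 falls. The cholesterol list had 6 rises without LIF and 6 with LIF, but 5 falls in 2i and 1 with MEK inhibitor; for Mvd the differences without LIF and in 2i were 0.83 and -0.58 and differed by 1.40 (adjusted p = 0.00199).

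With MEK inhibitor 153 genes (0.841%) passed the same test, 64 upward (0.352%) and 89 downward (0.489%) without LIF. In that medium itself 742 genes (4.08%) differed between the genotypes, 1.86% higher and 2.22% lower, and 10 of the 15 largest falls were among the lower. Klf2 (-1.35, adjusted p = 0.00208) and Sox15 (-0.97, adjusted p = 0.0399) were the naive genes among the 89, besides Prdm14 itself. Of the 15 largest falls Pde8a was the 1 called in these tests without a block, by -1.44 against 2i (adjusted p = 0.00923) and -1.45 against MEK inhibitor (adjusted p = 0.0201). Of the 15 largest rises it was 4930426D05Rik, by 2.04 and 2.38. The number block called 4 of the 15 falls in each test, Pde8a, Sult6b1 and Pzp in both, Slfn8 against 2i and Calml4 against MEK inhibitor. Other falls had large differences that did not pass, such as 1700006J14Rik, at -2.33 without LIF and 1.33 with LIF (-3.66, adjusted p = 0.243 without the block). Pim1 went from -1.79 in 2i to 0.49 without LIF, a difference of 2.28 (adjusted p = 1.63e-06).

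The transgene arrays are set beside these values; they share the medium, and each comparison reuses the knockout or the wild-type arrays, so the 2 sets of differences are not independent. Against knockout 2421 genes (13.3%) differed and against wild type 1941 (10.7%). Of the 15 largest falls 11 were higher with the transgene than in knockout (8.09% of all genes were), and 5 were lower than in wild type (4.33%) and 2 higher (6.34%).

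Slc38a4 was 4.78 above knockout and differed from wild type by -0.07 (adjusted p = 0.950). Slfn8 was 0.66 above knockout, which did not pass (adjusted p = 0.220), and differed from wild type by -4.07 (adjusted p = 9.35e-07). Ccnb1ip1 lay 0.86 above knockout (adjusted p = 0.00611) and at -3.07 from wild type (adjusted p = 1.33e-07), and Calml4 at 0.10 and -2.20. Serpinb6c and Gad1 lay above wild type with the transgene, by 3.07 and 2.33 (adjusted p = 0.00141 and 0.0264). The large falls therefore included genes near, below and above the wild-type level with the transgene. Large differences with the transgene also lay outside these falls. Nnat stood at -5.99 from knockout and -5.78 from wild type, while knockout and wild type differed by 0.21. Mymx stood at 4.59 and 3.75. Cbfa2t2, the corepressor that works with Prdm14, fell in knockout (-0.39, limma adjusted p = 0.0126) and lay 0.93 above knockout with the transgene.

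Of the 21 naive genes, 17 were higher with the transgene than in knockout (8.09% of all genes were). Against wild type 13 were higher (6.34% of all genes were), and none was lower in either comparison. Nr5a2 read 9.46 and 9.58, 4.44 above knockout and 2.25 above wild type (adjusted p = 0.000114). Tcl1 read 10.50 and 10.78, and Klf4 11.34 and 11.49, above both wild-type arrays. Of the 15 largest rises 5 were lower with the transgene than in knockout (5.22% of all genes were) and 3 were higher than in wild type. Ptpn14 was -1.30 from knockout and 0.21 from wild type, while Prex2, Mcc and Cd99 stayed 2.21, 2.05 and 1.96 above wild type (adjusted p = 0.00023, 0.00432 and 0.0112).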

How the data were processed

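Expression was measured on Affymetrix arrays from biotin-labelled cRNA, 1 array per sample, per the labels' protocols. The deposited table holds log2-scale values for 45100 probe sets on each array. Background correction, normalization and summary of these log2 values by the authors were not given in the sources used here, and base 2 was inferred from the highest value. Probe sets with 1 gene symbol in the platform annotation were kept (34944), and each gene took its brightest; 18032 of 18193 symbols were found in RefSeq GRCm38.p6, which gave chromosomes.

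Differences were fitted with limma 3.58.1 in R 4.3.3, 1 coefficient per group over 26 arrays (13 residual degrees of freedom, prior 5.05, intensity trend). Tests were two-sided, Benjamini-Hochberg adjusted over 18193 genes and called under 0.05. In simulated data with independent errors the fit called 18 of 67 changes of 1.5-fold, 35 of 67 of 2-fold and 57 of 66 of 4-fold, with 7 false calls. The simulation lacked the shared deviations of arrays of one number and genotype, so it does not check the p-values for them. Tables and plots used Python 3.11.15, pandas 2.3.3, numpy 2.4.6 and matplotlib 3.10.9. Named were Prdm14, the 15 largest called rises and falls without overlap, list members that passed and others with their values. Further genes came from the 5 largest called differences each way of the remaining comparisons. Not all of those of the transgene comparisons were named. Members and lists were chosen with earlier results of these data known. Alternatives left out arrays, 2 chromosomes, dim genes or the trend, or changed scaling, probe set choice, blocks (1 effect per number, or 1 per number and genotype for differences between media) or the arrays fitted. The number of arrays limits the precision.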

Additional observations from a re-analysis of the deposited data

Results flagged for a closer look

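The genotype difference without LIF differed from that in 2i, by the interaction test in limma, for 589 genes. Genes with a lower difference without LIF were Nt5e (-4.52), Trh (-4.06), Enox1 (-3.80), 1600025M17Rik (-3.76), Mucl2 (-3.50), Prdm14 (-3.21), Nr5a2 (-1.99), Nr0b1 (-1.51), Pde8a (-1.44), Klf2 (-1.36), Sox15 (-0.85) and Zfp42 (-0.63). Those with a higher one were S1pr5 (3.99), 2300002M23Rik (3.86), Lama1 (3.26), Bst1 (2.93), 4931431C16Rik (2.72) and 4930426D05Rik (2.04). Nt5e, an ecto-nucleotidase, was 4.47 higher in knockout in 2i and differed by -0.06 without LIF, and Lama1, a laminin chain, differed by -2.64 and 0.63.

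Against serum with MEK inhibitor 153 genes differed in the same way. Lower without LIF were Nt5e (-2.90), Hs6st2 (-2.70), Prdm14 (-2.57), Pirt (-2.56), Porcn (-2.24), Pde8a (-1.45), Klf2 (-1.35) and Sox15 (-0.97). Higher were 2300002M23Rik (3.38), Lama1 (3.33), 4930426D05Rik (2.38), S100a13 (2.29) and Pga5 (2.15).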

How the results depend on the processing

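The 763 calls (319 higher, 444 lower) fell to 20 (3 and 17) in a fit of the compared arrays alone, and to 466 (182 and 284) with the mean of each gene's probe sets. Leaving out 1 array gave 291 to 594 calls, 88 to 248 higher and 203 to 346 lower. The lone array left is then assumed to vary like the other groups. Without knockout array 1 there were 291, without knockout array 2 there were 347 and without wild-type array 1 there were 329. Quantile scaling gave 453 higher and 427 lower, moving the share of higher calls from 41.8% to 51.5%; it was 30.2% without knockout array 1 and 47.8% without chromosomes 11 and 16, a choice made after seeing the data. Averaging probe sets reversed Cxcl15 (-0.12) and Map2 (-0.21).

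For the interaction with serum LIF the counts were 0 to 2 when 1 array was left out (2 without wild-type array 1 with LIF, 1 without wild-type array 1 without LIF), and 1 with the replicate block. For 2i they were 18 in the compared arrays alone, 365 with no intensity trend, 336 with probe sets averaged and 325 to 598 with 1 array left out; for MEK inhibitor 2, 96, 98 and 51 to 155. The genotype by number replicate block, chosen after seeing the data, gave 3, 1805 and 851 calls for LIF, 2i and MEK inhibitor. With 1 array left out, transgene against knockout gave 1290 to 1543 calls and transgene against wild type 462 to 1972 (930 in the compared arrays alone).

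Replicate numbers do not pair the genotypes: the deviations of same-numbered arrays correlated at r = -0.11 over 7631 genes, and the replicate block gave 1018 calls (424 higher, 594 lower). The crossed pairing, chosen after seeing the data, gave 973. Arrays of one number and genotype deviated together across media (r = 0.49 to 0.83), so the residuals of the fit are not independent, which the p-values do not allow for. Of 82 named called genes, 28 kept their call without any 1 array and 7 under every alternative run for them: Slc38a4, Slfn8, Gm21283, Ccnb1ip1, Calml4, Ifitm1 and Pfkp.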
